A study of Arabidopsis thaliana with 12 samples.

Results

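Transcripts of basal inflorescence stems were compared between Arabidopsis thaliana plants that overexpress C3H14 and wild type, over the 3 arrays of each group, which are 6 of the 12 arrays of the series. The arrays were chosen by their sample labels, C3H14 overexpressors (C3H14-OE) and wild type (WT), both in ecotype Col-0, and every probe set other than the array's own controls was read, 22746 in all. The study set overexpressors of C3H14, overexpressors of C3H15 (C3H15-OE) and c3h14c3h15 double mutants against WT, with secondary wall metabolism and pollen formation as its stated themes. The lowest 4 cm of stems 12 to 17 cm tall was taken of glasshouse plants kept at 22 °C with a 16 h day and an 8 h night. The protocol speaks of 3 independent lines, but does not say whether each overexpressor array is a separate transgenic line or a separate set of plants, so a p-value here covers the spread between 3 samples that may share their source. The promoter of the transgene is not given in the sources used here. All values are log2 of normalized array intensity unless another scale is named, and a difference is a log2 difference of group means, C3H14-OE minus WT, with its standard error (SE).

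C3H14 and C3H15 are tandem CCCH zinc finger proteins, a family known in plants and animals for binding messenger RNA and for acting in the nucleus on transcription. In the stem, the fibres between the vascular bundles and the vessels of the xylem lay down a secondary wall of cellulose, xylan and lignin, and the basal end of the stem is where this is most advanced. Cortical microtubules guide the deposition of cellulose, and lignin is polymerised in the wall from monolignols that can also be stored as glucosides.

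The tissue was checked on named genes. Xylan synthesis genes were bright, with a median brightness at the 86.2 percentile of all probe sets, as were nuclear photosynthesis genes at 97.7. Tapetum and pollen wall genes (12.0), pollen genes (14.8) and root genes (26.5) were dim. Genes of secondary wall cellulose, of vessel and fibre cell death, of flower organs and of the secondary wall transcription factors have no named probe set here, so these groups were not analysed. In whole stem pieces, fewer cells of a type and less RNA per cell cannot be told apart.

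The array labelled C3H14-OE replicate 3 stood apart from its group before any comparison. The root mean square difference over all probe sets was 0.25 between C3H14-OE replicates 1 and 2, whereas replicate 3 lay 0.44 from replicate 1 and 0.46 from replicate 2. Its nearest array was C3H15-OE replicate 3, at 0.40, and the WT arrays lay 0.54 to 0.62 away. On replicate 3, 362 probe sets (1.59%) stood over 2-fold above both other C3H14-OE arrays and 108 (0.475%) over 2-fold below both. The same count on the other 11 arrays ran from 0 to 151 above, the highest being C3H15-OE replicate 3, and from 8 to 247 below, the highest being c3h14c3h15 replicate 1. Over 8-fold above both, the counts were 51 on C3H14-OE replicate 3 and 0 to 7 on the others. The comparisons with WT and with C3H15-OE, the list counts that differ and most genes with array values are therefore also given without this array, from the same fit on the 11 arrays left, and single list members named only by a difference are with it unless the text says otherwise.

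**Figure D1:**
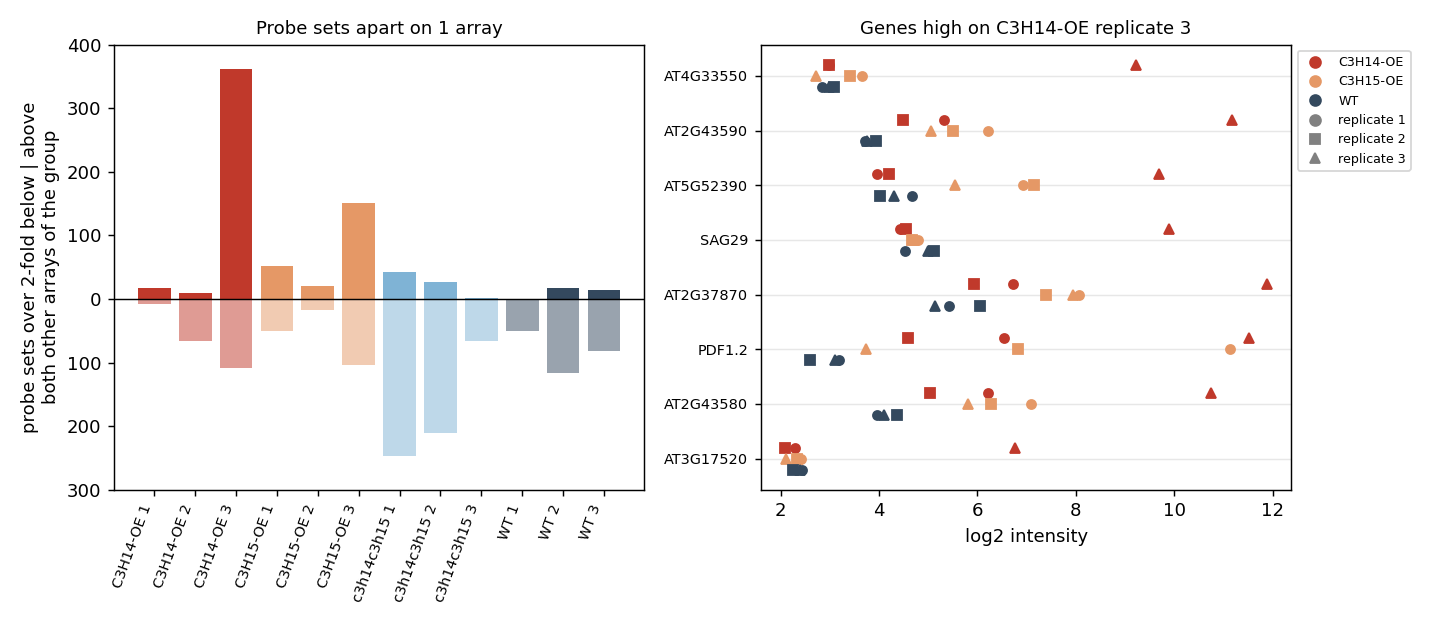
Left, number of probe sets over 2-fold above (upward bars) or below (downward, paler bars) both other arrays of the same group, for each of the 12 arrays; C3H14-OE replicate 3 has 362 above and 108 below. Right, log2 intensity of the 8 one-gene probe sets with the largest gap between C3H14-OE replicate 3 and the other C3H14-OE arrays, in C3H14-OE, C3H15-OE and WT, with marker shape giving the replicate; PDF1.2 is also high on C3H15-OE replicate 1 (11.13).

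C3H14 (AT1G66810, probe set 256367_at) was read first, since it checks the labels. It read 8.43, 9.10 and 7.07 on C3H14-OE replicates 1, 2 and 3, and 7.01, 6.12 and 7.43 on WT replicates 1, 2 and 3. C3H14-OE replicates 1 and 2 lay above every WT array, while replicate 3 lay within the WT range. The mean was 8.20 ± 1.03 (SD, n = 3) in C3H14-OE and 6.85 ± 0.67 (SD, n = 3) in WT, a difference of 1.34 (SE 0.45, 95% interval 0.35 to 2.34) or 2.54-fold. It did not pass the threshold over all probe sets (limma adjusted p = 0.258). Without replicate 3 the difference was 1.91, or 3.75-fold, and did not pass either (limma adjusted p = 0.266). C3H14-OE and C3H15-OE did not overlap: C3H15-OE read 5.18, 5.39 and 5.99, a difference of 2.68 (SE 0.45, limma adjusted p = 0.0553) that passed without C3H14-OE replicate 3 (3.24, limma adjusted p = 0.00685). The probe set of C3H15 is not named here. Raised C3H14 was thus seen on replicates 1 and 2 and not on replicate 3, and directions that rest on replicate 3 rest on its label.

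**Figure D2:**
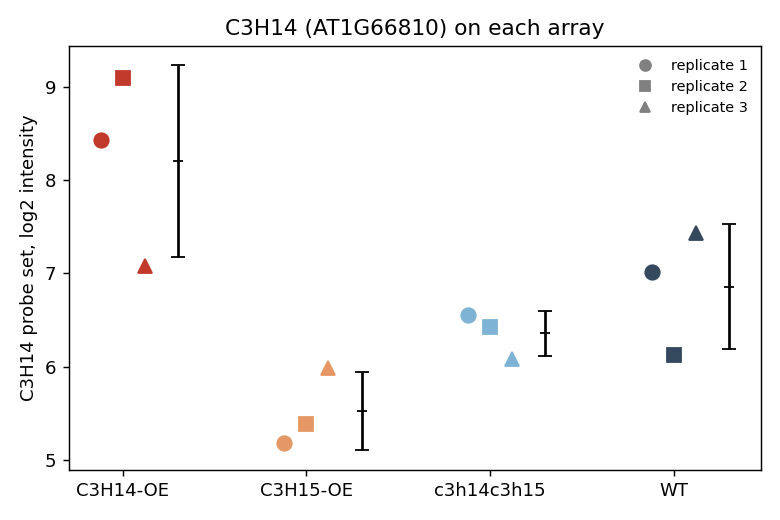
Log2 intensity of the C3H14 probe set on each array of C3H14-OE, C3H15-OE, c3h14c3h15 and WT, with marker shape giving the replicate and a bar for the mean and SD of the 3 arrays. C3H14-OE replicate 3 (7.07) lies between the WT arrays.

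In stems with the C3H14-OE label, 10 probe sets passed the threshold of an adjusted p of 0.05 against WT, all by over 2-fold. Of these, 4 rose, which is 0.0176% of the probe sets tested, and 6 fell, which is 0.0264%. Only 4 of the 10 have a single named gene, all known by a locus number alone, and the other 6 have no gene name here. Without C3H14-OE replicate 3, 1 probe set rose (0.0044%) and 1 fell (0.0044%), and both are among the 10. The set is small beside the lower bar of an unadjusted p under 0.05, which 1459 probe sets (6.41%) met above WT and 1722 (7.57%) below WT. Without replicate 3 these were 1065 (4.68%) and 976 (4.29%), and 1679 probe sets met it both times in the same direction.

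AT2G42770 (263980_at) had the smallest p. It read 5.45, 5.34 and 5.29 in C3H14-OE and 6.45, 6.54 and 6.53 in WT, so each group was tight and the groups were far apart. It fell by 1.15 (SE 0.09, limma adjusted p = 0.00068), and without replicate 3 by 1.11 (limma adjusted p = 0.00833). It passed under all 20 alternative settings.

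The probe set 256321_at read 7.68, 7.37 and 7.64 in C3H14-OE, against 5.73, 5.71 and 5.66 in WT. It rose by 1.87 (SE 0.19, limma adjusted p = 0.00587), and without replicate 3 by 1.83 (limma adjusted p = 0.0459). All 3 C3H14-OE arrays thus stood well above the WT arrays, replicate 3 among them, and the probe set passed under 19 of 20 alternatives.

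The other 8 did not pass in the fit on 11 arrays without replicate 3, though their differences were close to those with it. When only the 5 other arrays of C3H14-OE and WT were fitted, 74 probe sets passed, 9 of the 10 among them, all but 262414_at. AT5G02580 read 5.34, 5.45 and 4.89 in C3H14-OE and 6.96, 6.80 and 7.05 in WT (difference -1.71, limma adjusted p = 0.0139; without replicate 3 -1.54, limma adjusted p = 0.0624). AT1G43590 read 3.37, 3.14 and 3.05 in C3H14-OE and 4.49, 5.37 and 5.15 in WT (-1.81, limma adjusted p = 0.0139; without replicate 3 -1.75, limma adjusted p = 0.085). AT4G24350, the named gene that rose, read 6.84, 5.82 and 7.04 in C3H14-OE and 4.22, 4.56 and 4.20 in WT (2.24, limma adjusted p = 0.0416; without replicate 3 2.0, limma adjusted p = 0.194). Replicate 2 was the lowest C3H14-OE array for AT4G24350, and it too stood above every WT array.

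Of the unnamed probe sets, 253066_at fell by 1.67 (limma adjusted p = 0.0139), 262414_at by 1.37 (limma adjusted p = 0.0273) and 259787_at by 2.12 (limma adjusted p = 0.0416). The probe set 246342_at rose by 2.10 and 262312_at by 1.24 (limma adjusted p = 0.0416 each). On all of these the 3 C3H14-OE arrays did not overlap the 3 WT arrays. The probe set 262312_at was the brightest of the 10, at 12.22, 12.13 and 12.36 in C3H14-OE and 10.93, 11.28 and 10.78 in WT. None of the 10 differed from C3H15-OE past the threshold. The nearest to it was 256321_at, 0.95 above C3H15-OE (limma adjusted p = 0.0805), and 246342_at stood 1.21 below C3H15-OE (limma adjusted p = 0.146). Against WT, all but 259787_at also passed in C3H15-OE, each in the same direction. In c3h14c3h15, AT5G02580 (-1.03) and 253066_at (-1.09) passed against WT in the same direction as in C3H14-OE. AT2G42770 (0.72) and 246342_at (-1.19) passed there in the other direction, and the rest did not pass.

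**Figure D3:**
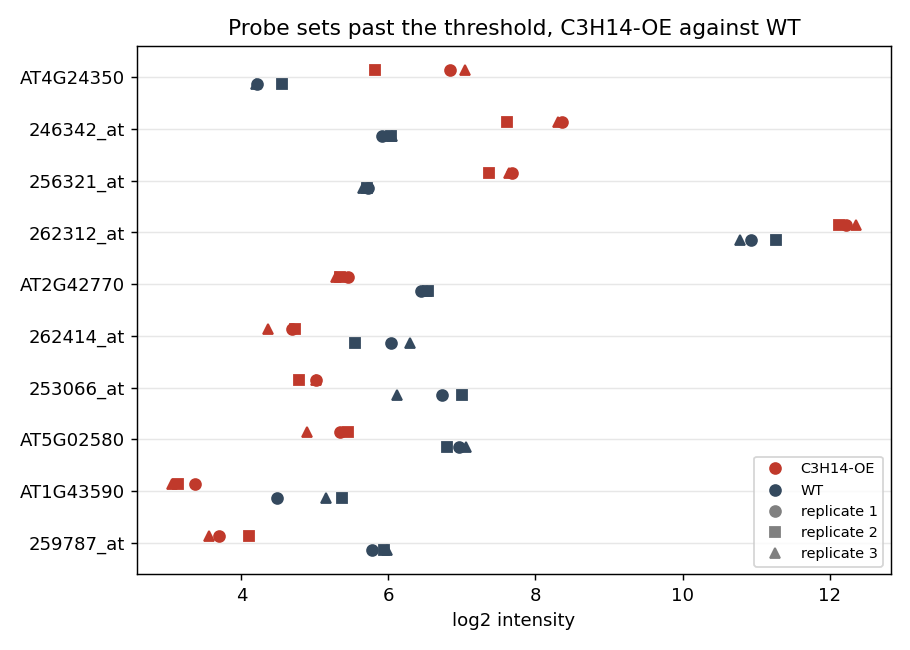
Log2 intensity of the 10 probe sets past the threshold on each C3H14-OE array and, just below, each WT array, with marker shape giving the replicate. In every row the 3 C3H14-OE arrays lie on one side of the 3 WT arrays.

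The count of 10 depended on single C3H14-OE, WT and c3h14c3h15 arrays. When C3H14-OE replicate 1, 2 or 3 was dropped it was 1, 19 or 2, and when WT replicate 1, 2 or 3 was dropped it was 3, 15 or 3. Leaving out a c3h14c3h15 array, which enters only through the shared estimate of spread, gave 56, 24 and 5 for replicates 1, 2 and 3. Of the 10 probe sets, 1, 9, 2, 3, 7, 3, 10, 10 and 5 were among the calls in these fits, in the order given. Without C3H15-OE replicate 1, 2 or 3 the count was 13, 10 or 12.

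Below the threshold, the 3 C3H14-OE arrays did not overlap the 3 WT arrays at 2117 probe sets with C3H14-OE higher (9.31%) and 2717 with C3H14-OE lower (11.9%). The one-gene probe sets of smallest p among them are given next as values, since none but the 4 above passed. AT4G32870 came nearest on the higher side, at 6.89, 6.82 and 6.75 in C3H14-OE and 6.12, 5.87 and 6.10 in WT (0.79, limma adjusted p = 0.0681; without replicate 3 0.83, limma adjusted p = 0.194). Larger differences at a higher p were those of AT3G23550 (2.48), AT4G29700 (2.05), AT5G52760 (1.82), AT1G06620 (1.78), AT4G15660 (1.65) and AT5G53420 (1.04). AT1G51380 (0.70) and AT5G44910 (0.52) stood above WT by less. Without replicate 3 these 8 stood 0.55 to 2.33 above WT, as AT5G44910 (0.55) and AT3G23550 (2.33) show.

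On the lower side, AT4G01130 had the largest difference of these, reading 4.44, 4.57 and 3.45 in C3H14-OE and 6.14, 6.45 and 6.26 in WT (-2.13, limma adjusted p = 0.118; without replicate 3 -1.78). AT4G30670 stood at -1.21, AT2G36430 at -0.90, AT3G30380 at -0.80, AT1G21060 at -0.77 and AT1G06980 at -0.73. AT3G56730 (-0.65), AT5G12270 (-0.61) and AT5G01740 (-0.53) had smaller differences. AT4G30670 (-1.22), AT3G30380 (-0.87) and AT5G01740 (-0.57) kept the same size without replicate 3.

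Genes with a published symbol were then read by role. Of 1580 such probe sets 0 passed the threshold (limma, adjusted over all probe sets), with or without replicate 3 for those in the lists below, while 120 stood above WT and 129 below it at an unadjusted p under 0.05. The lists, 45 with at least 1 named gene, hold 432 probe sets, of which 0 passed. They cover their groups only in part: 4 of 33 xylan synthesis genes, 7 of 17 tubulins and 7 of 83 pectin enzymes have a named probe set. Each list is described by how many members met the unadjusted bar and by its median, beside a median over all probe sets of -0.04 with replicate 3 and -0.02 without it. Over all probe sets 6.41% met that bar above WT and 7.57% below it, or 4.68% and 4.29% without replicate 3. A list count near these shares is no result about the list.

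The named xylan synthesis genes lay below WT. All 4 named members had negative differences, 3 of them met the unadjusted bar below WT with and without replicate 3, and the median was -0.68, or -0.64 without replicate 3. IRX15, a Golgi protein needed for normal xylan, read 7.44, 7.78 and 7.46 in C3H14-OE and 8.39, 8.41 and 8.19 in WT (-0.77, SE 0.24, limma adjusted p = 0.239; without replicate 3 -0.72). Its close relative IRX15-L read 8.08, 8.32 and 8.05 in C3H14-OE and 8.70, 8.84 and 9.14 in WT (-0.75, SE 0.26, limma adjusted p = 0.273; without replicate 3 -0.70). For both genes the highest C3H14-OE array was replicate 2, still below every WT array.

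GUT2, also called IRX10, a glycosyltransferase that extends the xylan backbone, read 8.10, 8.30 and 8.14 in C3H14-OE and 8.75, 8.62 and 9.0 in WT (-0.61, SE 0.23, limma adjusted p = 0.291; without replicate 3 -0.59). Its paralog GUT1 read 7.84, 7.77 and 7.70 in C3H14-OE and 7.83, 7.65 and 7.94 in WT (-0.04, limma adjusted p = 0.909). The groups overlapped for GUT1 and for none of the other 3. Replicate 3 lay with replicates 1 and 2 for these genes: the list median against WT was -0.76, -0.52 and -0.75 on C3H14-OE replicates 1, 2 and 3. In C3H15-OE, set against the same WT arrays, the median was -1.04, and in c3h14c3h15 it was 0.76.

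Tubulins, the subunits of microtubules, lay on the same side. All 7 named members had negative differences, 3 met the unadjusted bar below WT, and the median was -0.48. Without replicate 3 all 7 were still negative, 1 met the bar and the median was -0.20. TUB6, a beta-tubulin, was the symbol gene of smallest p on the lower side, at 10.57, 10.69 and 10.35 in C3H14-OE and 11.22, 11.11 and 11.31 in WT (-0.68, SE 0.14, limma adjusted p = 0.127; without replicate 3 -0.58, limma adjusted p = 0.378).

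The alpha-tubulin TUA6 read 9.85, 10.02 and 9.59 in C3H14-OE and 10.35, 10.14 and 10.64 in WT (-0.56, limma adjusted p = 0.301; without replicate 3 -0.44). TUB1 varied widely within both groups, at 4.35, 5.10 and 3.88 in C3H14-OE and 6.15, 4.71 and 6.73 in WT (-1.42, limma adjusted p = 0.307), and the groups overlapped at WT replicate 2. TUB9 stood at -0.23. The median of the 7 tubulins was 8.55 on C3H14-OE replicate 3, lower than on replicates 1 (9.06) and 2 (9.12). In C3H15-OE, against the same WT arrays, the tubulin median was -0.88, and in c3h14c3h15 it was 0.11. TUB6 passed the threshold below WT in C3H15-OE (-0.97, limma adjusted p = 0.00569).

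IQ domain proteins, a plant family of calmodulin-binding proteins of which several sit on microtubules, had 8 of 15 members at the unadjusted bar below WT and 0 above, and 7 and 0 without replicate 3. The median was -0.32, or -0.29 without replicate 3. The gene iqd21 read 6.24, 6.24 and 5.80 in C3H14-OE and 7.08, 6.70 and 6.89 in WT (-0.79, SE 0.20, limma adjusted p = 0.182; without replicate 3 -0.65). IQD18 stood at -0.74, IQD24 at -0.59 and IQD16 at -0.28, and without replicate 3 at -0.70, -0.37 and -0.29. IQD16 and IQD18 were dim, under 5 on every array of both groups, so the list is not made of bright genes alone, and its median brightness was at the 36.0 percentile. In C3H15-OE, against the same WT arrays, the list median was -0.39, and in c3h14c3h15 it was -0.06. The gene iqd21 passed the threshold below WT in C3H15-OE (-1.30, limma adjusted p = 0.00709) and above WT in c3h14c3h15 (0.77, limma adjusted p = 0.0445).

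Other wall genes showed no common direction. Of 10 xyloglucan endotransglucosylases, which cut and rejoin wall xyloglucan, 0 met the unadjusted bar above WT and 2 below it, XTH33 at -1.44 and XTH21 at -0.38, with XTH32 at -0.35 and XTH29 at -0.39, and a list median of -0.16. Without replicate 3 only XTH21 met it (-0.35). Of 19 expansins, which loosen walls, EXPB3 met it above WT (0.82) and EXPA8 below (-0.97), with EXPA20 at -0.30 and EXLA3 at 1.04, and without replicate 3 EXPA20 met it too (-0.44). Of 9 genes of primary wall cellulose and cellulose synthase-like proteins, CSLA01 met it below WT (-0.36), while CSLA03 stood at -0.88, COB at -0.32 and ATCSLC08 at -0.32. Of 7 pectin enzymes, PME61 stood above WT (0.42) and AT4G02300, a pectin methylesterase (-0.35), and ATPMEPCRD (-0.98) below, each at the unadjusted bar with and without replicate 3, as was CSLA01, and GAUT15, of a family of pectin glycosyltransferases, stood at -0.28. The medians of these 4 lists lay between -0.16 and -0.08, and without replicate 3 between -0.22 and 0.02.

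Lignin enzymes were little covered. HCT, an enzyme of monolignol synthesis, read 10.23, 10.31 and 10.20 in C3H14-OE and 10.18, 10.38 and 10.15 in WT, with both groups in one narrow band (0.01, limma adjusted p = 0.981). CCR2, a cinnamoyl-CoA reductase linked to defence, read 4.68, 3.72 and 6.12 in C3H14-OE and 3.57, 3.77 and 3.03 in WT (1.38, limma adjusted p = 0.29), with replicate 3 the highest. It met the unadjusted bar with replicate 3 and not without it, when it stood at 0.75. CCOAMT, a caffeoyl-CoA methyltransferase, stood at 0.64 and overlapped between the groups. Of 8 laccases and peroxidases, AT2G41480, a peroxidase (1.24), PRXR1 (0.27) and AT5G64120, a peroxidase (0.67), met the unadjusted bar above WT and 0 met it below. Without replicate 3 none of the 8 met it, and AT2G41480 stood at 0.61.

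Among the 22 named beta-glucosidases, which release sugars from stored glucosides, 4 met the unadjusted bar above WT and 1 below, and 5 and 0 without replicate 3. The 3 of smallest p were BGLU46, BGLU47 and BGLU45. BGLU45 and BGLU46 are known for hydrolysing monolignol glucosides, and BGLU47 belongs to the same clade. BGLU46 read 7.78, 7.78 and 7.79 in C3H14-OE, against 5.25, 7.10 and 5.73 in WT (1.75, SE 0.45, limma adjusted p = 0.19; without replicate 3 1.75). The 3 C3H14-OE arrays were almost equal, and the spread lay in WT.

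BGLU47 read 5.67, 5.90 and 4.87 in C3H14-OE, against 4.08, 4.07 and 4.20 in WT (1.36, SE 0.39, limma adjusted p = 0.209; without replicate 3 1.67). BGLU45 read 10.52, 10.37 and 10.43 in C3H14-OE, against 9.51, 9.78 and 9.08 in WT (0.98, SE 0.32, limma adjusted p = 0.241; without replicate 3 0.99). None of these genes overlapped between the groups, and none needed replicate 3 for its direction. In C3H15-OE, against the same WT arrays, BGLU46 stood at 0.54, BGLU47 at 0.10 and BGLU45 at 0.44, and the difference of C3H14-OE from C3H15-OE passed for none of the 3. BGLU41 stood below WT at -0.40 and BGLU33 above it at 0.85. The median of the whole family was -0.00.

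**Figure D4:**
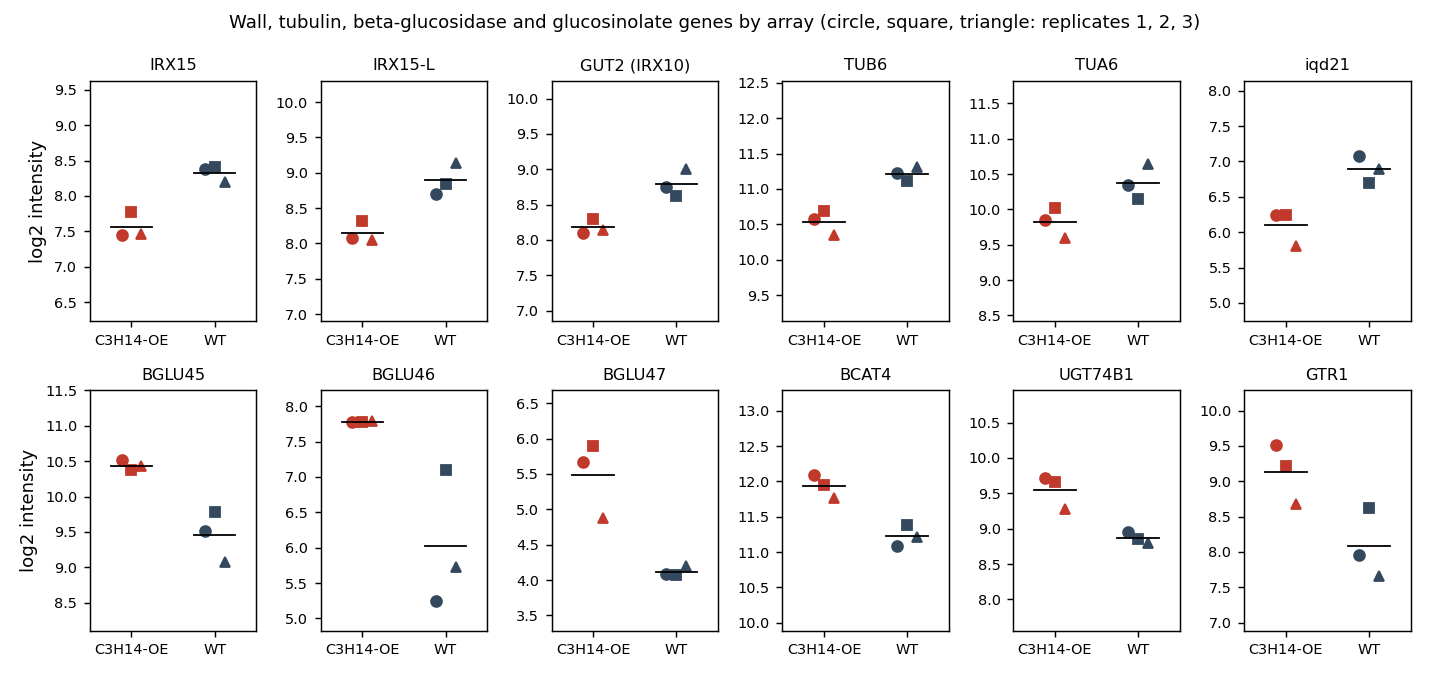
Log2 intensity of 12 genes on the C3H14-OE arrays (left in each panel) and the WT arrays (right), with circle, square and triangle for replicates 1, 2 and 3 and a line at the mean; every panel spans the same range of log2 units. The C3H14-OE arrays lie below the WT arrays in the 6 upper panels and above them in the 6 lower panels. All 12 are list members whose groups do not overlap, so this separation comes from the choice of genes. GUT1, TUB1, AOP1 and AOP3, which overlapped, and BGLU41, which lay below WT, are not shown.

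UDP-glycosyltransferases, which attach sugars to small molecules, had 9 of 51 members above and 6 below WT at the unadjusted bar, with a median of -0.00, and 7 and 4 without replicate 3, with a median of 0.02. UGT72E1, known for glucosylating monolignol aldehydes, read 5.37, 5.13 and 5.79 in C3H14-OE and 4.54, 4.60 and 3.94 in WT (1.07, SE 0.25, limma adjusted p = 0.172; without replicate 3 0.89). UGT71C3 stood at 1.25, UGT73B5 at 0.76 and UGT76D1 at -0.43. UGT72E1 also passed the threshold above WT in C3H15-OE (1.21, limma adjusted p = 0.0208). Cytochrome P450 genes had 2 of 22 above and 0 below, with a median of -0.02, where 6.41% of all probe sets met the bar above WT. The 2 were CYP71B26 (0.55) and CYP71B24 (0.85), with CYP71B22 at 0.65 and CYP71B23 at 0.99. Without replicate 3 it was 3 above, with CYP71B22 (0.84) added, and 1 below, CYP71B38 (-0.29).

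Genes of glucosinolates, the sulfur-rich defence compounds of the cabbage family, formed a list added after BCAT4 was seen, so its count supports nothing. Of its 6 members 3 met the unadjusted bar above WT and 0 below, with and without replicate 3, and the median was 0.61, or 0.67 without it. BCAT4, an aminotransferase that starts the side chain of methionine-derived glucosinolates, read 12.09, 11.96 and 11.77 in C3H14-OE and 11.09, 11.38 and 11.21 in WT (0.71, SE 0.13, limma adjusted p = 0.118; without replicate 3 0.80). UGT74B1, the glucosyltransferase of the glucosinolate core, read 9.72, 9.65 and 9.27 in C3H14-OE and 8.95, 8.85 and 8.79 in WT (0.68, SE 0.23, limma adjusted p = 0.254; without replicate 3 0.82).

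The transporter GTR1 read 9.52, 9.22 and 8.67 in C3H14-OE and 7.96, 8.62 and 7.65 in WT (1.06, limma adjusted p = 0.256; without replicate 3 1.29). GTR2 stood at 0.53, AOP3 at -0.09 and AOP1 at -0.01. For BCAT4, UGT74B1 and GTR1 it was replicate 3 that lay lowest in C3H14-OE. In C3H15-OE the list median against the same WT arrays was 0.11, though BCAT4 passed the threshold above WT there (0.50, limma adjusted p = 0.0485). APS3, an ATP sulfurylase that starts sulfate assimilation, read 9.82, 8.97 and 9.28 in C3H14-OE and 8.13, 8.39 and 8.34 in WT (1.07, limma adjusted p = 0.172; without replicate 3 1.11). GSTU20, a glutathione transferase, read 11.48, 11.38 and 11.08 in C3H14-OE and 10.64, 10.70 and 10.82 in WT (0.59, limma adjusted p = 0.179; without replicate 3 0.71). Of the other 13 named glutathione transferases 2 met the unadjusted bar, both below WT, GSTU26 at -0.59 and GSTU18 at -0.54, and GSTU23 stood at 0.34. Without replicate 3 the signs held but the calls changed: neither of those met it (-0.44 and -0.34), and GSTU23 met it above WT (0.51). GSTU26 was dim, at the 8.64 percentile of brightness.

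Sugar transporters had 6 of 19 members below and 1 above WT at the unadjusted bar, and 4 and 0 without replicate 3, with a median of -0.08. SWEET2, a sugar transporter of the vacuolar membrane, read 5.18, 5.0 and 4.37 in C3H14-OE and 6.01, 5.90 and 6.16 in WT (-1.18, SE 0.25, limma adjusted p = 0.15; without replicate 3 -0.94). TMT1, a monosaccharide transporter of the same membrane, read 8.75, 8.89 and 8.28 in C3H14-OE and 9.31, 9.16 and 9.30 in WT (-0.62, limma adjusted p = 0.221; without replicate 3 -0.44). SWEET16, likewise vacuolar, stood at -0.88 (without replicate 3 -0.65) and the nectary transporter SWEET9 at -0.34. TMT2, the member above WT, stood at 0.40. SWEET2 also passed the threshold below WT in C3H15-OE (-1.89, limma adjusted p = 0.004).

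Auxin genes had 5 of 19 members below and 0 above WT at the unadjusted bar, and 2 and 0 without replicate 3, with a median of -0.22. YUC6 and YUC11, enzymes of auxin synthesis, stood at -0.30 and -0.28, LBD16, a factor of lateral root initiation, at -0.33, and WES1, which conjugates auxin to amino acids, at -0.89. None of these 4 met it without replicate 3, when IAA20 (-0.32), an auxin response repressor that met it both times, and ARL (-1.46), an organ size gene, did. HAT2, an auxin-induced homeodomain factor outside this list, read 7.54, 8.21 and 8.02 in C3H14-OE and 8.81, 8.81 and 8.86 in WT (-0.90, limma adjusted p = 0.196; without replicate 3 -0.95). The 3 WT arrays were close together for HAT2 and all C3H14-OE arrays lay below them. Against the same WT arrays HAT2 passed the threshold below WT in C3H15-OE (-0.90, limma adjusted p = 0.0466) and in c3h14c3h15 (-1.06, limma adjusted p = 0.0281), so its fall is not particular to C3H14-OE.

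Most nuclear photosynthesis genes lay below WT and most plastid genes above it. Of 16 nuclear members 15 were below 0, 5 met the unadjusted bar below WT and 0 above, and the median was -0.31. Without replicate 3 only 1 met it and the median was -0.09. Replicate 3 carried most of this: the median of the list was 10.41, 10.26 and 9.56 on C3H14-OE replicates 1, 2 and 3, and 10.27, 10.42 and 10.52 on WT replicates 1, 2 and 3. LHCB4.1, an antenna protein of photosystem II, lay below WT on every C3H14-OE array, at 11.44, 11.75 and 11.40 in C3H14-OE and 12.00, 11.98 and 12.03 in WT (-0.47, limma adjusted p = 0.196; without replicate 3 -0.41).

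PSAN, a subunit of photosystem I, read 10.85, 10.66 and 9.71 in C3H14-OE and 11.37, 11.02 and 11.21 in WT (-0.80, limma adjusted p = 0.272; without replicate 3 -0.45). PSAE-1, also of photosystem I, stood at -0.49 and NdhS, of the chloroplast NADH dehydrogenase-like complex, at -0.32, and both moved nearer 0 without replicate 3, to -0.25 and -0.24.

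The 69 genes of the plastid genome had a median of 0.57, or 0.50 without replicate 3, and 60 of them were above 0. Only 4 met the unadjusted bar above WT, rps16 (0.86), rbcL (0.70), atpI (0.94) and rpoC1 (1.20), and 1 without replicate 3. The WT arrays differed more among themselves than the groups did. The list median was 9.39, 9.94 and 9.52 on C3H14-OE replicates 1, 2 and 3, and 8.12, 9.27 and 9.75 on WT replicates 1, 2 and 3. These transcripts come from 1 small genome, so 69 probe sets are not 69 separate results.

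**Figure D5:**
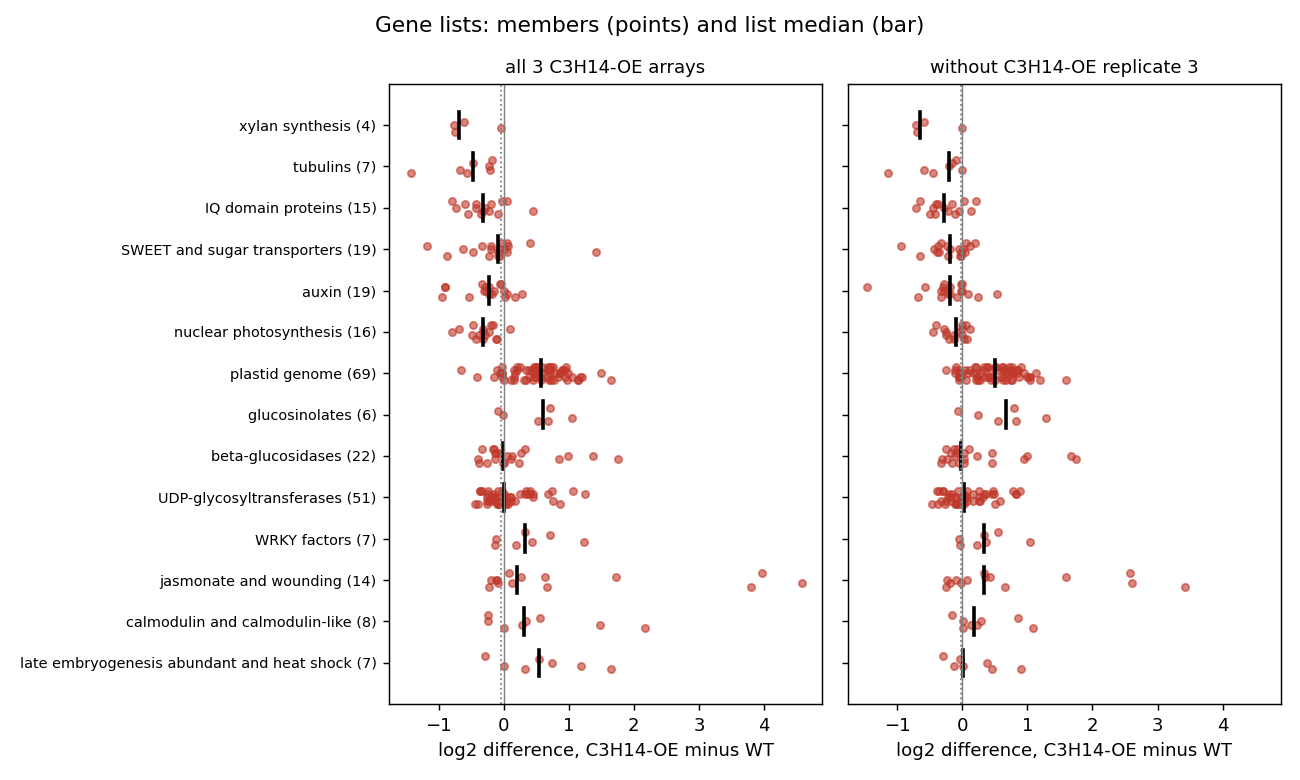
Log2 difference of C3H14-OE minus WT for each member (points) of 14 gene lists, with the list median as a bar, the number of members in brackets, a dotted line at the median of all probe sets and a solid line at 0. The left panel uses all 3 C3H14-OE arrays and the right panel leaves out replicate 3; the xylan median moves little (-0.68 and -0.64) and that of late embryogenesis abundant and heat shock genes moves to near 0 (0.55 and 0.01).

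In the jasmonate and wounding list 6 of 14 members met the unadjusted bar above WT and 0 below, with a median of 0.20. Without replicate 3 it was 4 and 0, with a median of 0.34. JAL23, a jacalin-related lectin, read 8.48, 7.75 and 8.52 in C3H14-OE and 6.57, 6.55 and 6.46 in WT (1.72, SE 0.31, limma adjusted p = 0.103; without replicate 3 1.59). It had the smallest p of any gene with a published symbol, and its WT arrays were within a narrow band. JAL23 also passed the threshold above WT in C3H15-OE (1.65, limma adjusted p = 0.014).

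The defensin probe set PDF1.2b read 11.41, 11.14 and 12.42 in C3H14-OE and 8.38, 9.28 and 5.91 in WT (3.80, SE 0.94, limma adjusted p = 0.179; without replicate 3 3.42). Its suffix marks probes that match several sequences, so it may read other defensins as well. PDF1.2 itself read 6.55, 4.59 and 11.52 in C3H14-OE and 3.19, 2.60 and 3.11 in WT (4.59, SE 1.75, limma adjusted p = 0.299; without replicate 3 2.60). OSM34, an osmotin of the pathogenesis-related proteins, read 5.76, 5.38 and 9.75 in C3H14-OE and 2.94, 3.13 and 2.92 in WT (3.97, SE 1.20, limma adjusted p = 0.225; without replicate 3 2.57). For PDF1.2 and OSM34 all 3 C3H14-OE arrays lay above WT, replicate 3 by far the most. MYC3, a transcription factor of jasmonate responses, stood at 0.66.

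WRKY53, a transcription factor active in leaf senescence, read 7.07, 6.25 and 7.22 in C3H14-OE and 5.94, 5.78 and 5.11 in WT (1.24, limma adjusted p = 0.199; without replicate 3 1.04), and WRKY6 stood at 0.43. They were 2 of 7 WRKY members at the unadjusted bar above WT, with 0 below, the same counts as without replicate 3, and WRKY22 stood at 0.71 and ZAP1 at 0.20. STZ, also called ZAT10, a zinc finger repressor of stress responses, read 9.06, 7.32 and 8.89 in C3H14-OE and 6.57, 7.01 and 5.95 in WT (1.92, limma adjusted p = 0.184; without replicate 3 1.68). In the same list of rapid stress genes the ubiquitin ligases PUB24, PUB23 and PUB22 stood at 0.43, 0.77 and 0.12, and the last of these turned to -0.23 without replicate 3. STZ was the 1 member of 4 at the unadjusted bar, with and without that array. B120, a receptor-like kinase, stood at 1.29 and 1.10 without replicate 3.

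Of 8 calmodulin-like genes, which sense calcium, CML38 (2.17) and CML42 (0.56) met the unadjusted bar above WT and 0 met it below, and without replicate 3 only CML42 did. CML38 read 6.31, 4.99 and 8.89 in C3H14-OE and 4.26, 4.91 and 4.53 in WT, and stood at 1.09 without replicate 3. CML42 went the other way, at 8.03, 8.04 and 7.14 in C3H14-OE and 6.96, 7.38 and 7.19 in WT, so that only replicate 3 overlapped WT, and its difference was 0.86 without it. CML37 stood at 1.47 with replicate 3 and 0.23 without, and CML23 at 0.28.

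Of 7 late embryogenesis abundant and heat shock genes 3 met the unadjusted bar above WT, AT5G48570, the heat-induced immunophilin ROF2 (1.65), Hsp70-2 (0.75) and AT2G46140, LEA27 (0.32). The list median was 0.55 with replicate 3 and 0.01 without it, when Hsp70-2 (0.39) no longer met the bar. LEA4-5 read 3.69, 3.46 and 7.11 in C3H14-OE and 3.67, 3.53 and 3.50 in WT, so that only replicate 3 departed from WT. CHI (AT2G43570), a chitinase, read 7.51, 6.27 and 10.77 in C3H14-OE and 5.95, 5.85 and 5.27 in WT (2.50, limma adjusted p = 0.29; without replicate 3 1.20). Of 4 senescence genes PPDK (0.54) and SAG101 (0.28) met the bar above WT, and YLS5 stood at 0.23. Without replicate 3 none met it: PPDK stood at 0.40, SAG101 at 0.30, YLS5 at 0.02 and SAG29 at -0.39, and the list median was 0.16, against 0.41 with it.

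Clock and cold genes were few. COR27, a cold- and clock-regulated gene, read 6.10, 6.10 and 7.19 in C3H14-OE and 7.61, 7.59 and 7.09 in WT (-0.97, limma adjusted p = 0.274). Without replicate 3 it stood at -1.33 (limma adjusted p = 0.326), replicate 3 being the array within the WT range. GI, a clock gene, stood at -0.17, and at -0.30 without replicate 3, when both clock genes met the unadjusted bar and with it only COR27 did. Of 4 cold genes COR15B met the unadjusted bar below WT (-0.56), and LTI30 (0.56), COR47 (-0.17) and COR15A (0.38) did not. Without replicate 3 none met it and all 4 were below 0, COR15B at -0.31, LTI30 at -0.00, COR47 at -0.21 and COR15A at -0.22.

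Markers of other organs and cell types did not pass. The 3 tapetum and pollen wall genes were SWEET8 (-0.08), AMS (-0.04) and ATA27 (-0.00), with a median level of 2.56 in C3H14-OE and 2.59 in WT. Of 11 pollen genes ANX1, a receptor kinase of pollen tubes, met the unadjusted bar below WT (-0.40, and -0.42 without replicate 3) at levels of 2.53, 2.33 and 2.51 in C3H14-OE and 2.95, 2.61 and 3.01 in WT. Phloem (CLE41 0.24, CLE44 0.06), cambium (PHV 0.10, MOL1 -0.02), epidermis (WSD1 -0.40, AT4G13840 0.04), root (PYK10 -0.13, EXPA7 -0.06, EXPA18 -0.03) and seed (OLEO3 -0.10) markers overlapped between the groups. Their part in the results above was not tested. Of the remaining lists, the housekeeping controls PEX4, ACT11 and GAPC2 stood at -0.19, -0.29 and 0.09. Gibberellin genes had 1 of 3 members at the unadjusted bar above WT, while brassinosteroid and cytokinin genes (of 7), basic helix-loop-helix factors (of 8) and cell cycle and histone genes (of 9) had 1 each below it. Without replicate 3 the gibberellin and cell cycle counts were 0, the brassinosteroid and cytokinin count was still 1 below, and the basic helix-loop-helix count turned to 1 above and 0 below. None met it among 5 flavonoid genes, 7 starch genes, or the single named genes of ethylene, MYB, NAC and ribosomal proteins.

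Other symbol genes of small p whose arrays did not overlap were ALC (0.82), a factor of fruit opening, and CYTC-2 (0.69), a cytochrome c, above WT. Below WT were IDD16 (-0.90), of the indeterminate-domain zinc fingers, RR22 (-0.45), a response regulator, TET7 (-0.94), a tetraspanin, and TBL21 (-0.39), of a family of wall acetyltransferases. ADCL (-0.45), an enzyme of folate synthesis, and RTH (-0.38) also lay below WT. Without replicate 3 these 8 stood at 0.88, 0.56, -0.78, -0.47, -0.85, -0.40, -0.34 and -0.38, in the same order. RR22 and TBL21 were dim, at 3.09 and 2.49 in WT and at the 17.3 and 8.28 percentile of brightness. In C3H15-OE, ALC, CYTC-2, TET7 and ADCL passed the threshold against WT in the same direction, and the other genes named here did not.

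The genes that set replicate 3 apart were read without a test, since they were chosen by it. AT4G33550 read 2.98, 2.98 and 9.23 in C3H14-OE and 2.85, 3.08 and 2.98 in WT. SAG29, the senescence-associated sugar transporter SWEET15, read 4.42, 4.55 and 9.90 in C3H14-OE and 4.52, 5.13 and 4.99 in WT, and AT3G17520 read 2.29, 2.09 and 6.77 in C3H14-OE and 2.44, 2.24 and 2.40 in WT. On these genes, and on AT5G52390 (3.95, 4.20 and 9.70 in C3H14-OE), replicates 1 and 2 lay within or below the WT range.

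AT2G43590, with the locus number beside that of AT2G43580, read 5.31, 4.50 and 11.18 in C3H14-OE and 3.72, 3.94 and 3.76 in WT. AT2G43580 read 6.21, 5.03 and 10.74 in C3H14-OE and 3.96, 4.37 and 4.10 in WT. Here, as for PDF1.2 and OSM34, replicates 1 and 2 also lay above WT. AT2G37870 read 6.73, 5.93 and 11.89 in C3H14-OE and 5.42, 6.06 and 5.13 in WT, with replicate 2 within the WT range.

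Of the 51 probe sets over 8-fold above both other C3H14-OE arrays, 18 also had replicates 1 and 2 above every WT array and 4 had both below every WT array. Of the 362 over 2-fold above, 113 and 37 did, where 3218 (14.1%) and 3466 (15.2%) of all probe sets did so. On C3H15-OE, 169 of the 362 had every array above every WT array, against 2879 (12.7%) of all probe sets, and 49 of the 362 were also among the 151 on which C3H15-OE replicate 3 stood over 2-fold above its group. Of the 108 below, 49 had every C3H15-OE array below every WT array, against 3845 (16.9%) of all probe sets.

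Among the lists, members over 2-fold above both other C3H14-OE arrays were in stress and defence (PDF1.2, PDF1.2b, OSM34, CHI, PUB22, PUB23, CML37, CML38). Others were in desiccation, heat and cold (LEA4-5, AtLEA4-1, AT5G48570, LTI30, COR15A, COR27) and in peroxidases (AT2G41480, Prx37, PRX52). Single members were CCR2, XTH18 (3.25, 2.87 and 6.43 in C3H14-OE, against 4.47, 3.13 and 4.30 in WT), EXLB1 (3.52, 4.22 and 7.95, against 3.71, 4.06 and 3.69 in WT), SAG29, ARL, UGT87A2, CHIL and ndhF. On replicate 3, COR27 (7.19) and ARL (9.59) lay within the WT range.

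The one-gene probe sets lowest on replicate 3 were of 2 kinds. AT4G33810 (7.10, 7.15 and 4.39 in C3H14-OE and 6.91, 7.60 and 5.43 in WT), AT1G05310 (6.67, 7.02 and 3.96 in C3H14-OE and 6.98, 7.27 and 5.61 in WT) and AT2G44260 (5.68, 6.47 and 3.43 in C3H14-OE and 5.93, 6.72 and 4.43 in WT) were also lowest on replicate 3 in WT. AT3G49070 and AT4G24430 did the same, at 3.39 and 3.77 on C3H14-OE replicate 3 and 4.78 and 4.24 on WT replicate 3. All of these were lowest on replicate 3 in C3H15-OE too, at 4.70, 4.17, 3.65, 4.36 and 4.03 in the order given, but not in c3h14c3h15. AT1G22690 (6.15, 5.72 and 3.58 in C3H14-OE and 6.61, 6.08 and 6.41 in WT), AT3G06070 (7.23, 7.08 and 5.44 in C3H14-OE and 7.12, 6.86 and 7.42 in WT) and AT2G05540 (8.88, 8.76 and 7.12 in C3H14-OE and 9.59, 9.09 and 9.34 in WT) were not lowest on replicate 3 in WT. AT2G05540 read 6.25, 6.93 and 6.62 in C3H15-OE and AT3G06070 4.85, 5.48 and 5.19, so C3H14-OE replicate 3 lay nearer the C3H15-OE arrays than replicates 1 and 2 did.

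Set directly against C3H15-OE, a difference of means that holds no WT array although all 12 arrays set its spread, 14 probe sets were higher in C3H14-OE (0.0615%) and 14 lower (0.0615%). Without C3H14-OE replicate 3 there were 71 higher (0.312%) and 29 lower (0.127%), among them 26 of the 28. Among the genes named by smallest p, MSRB9, a methionine sulfoxide reductase, read 3.64, 3.21 and 3.81 in C3H14-OE and 6.45, 6.16 and 5.59 in C3H15-OE (-2.52, limma adjusted p = 0.0098; without replicate 3 -2.64). In WT it read 3.52, 3.76 and 2.91, so C3H14-OE lay at the WT level. AT1G50040 read 6.86, 6.93 and 6.15 in C3H14-OE and 4.67, 5.01 and 5.05 in C3H15-OE (1.74, limma adjusted p = 0.0168; without replicate 3 1.99), below 7.50, 7.31 and 7.59 in WT. Single arrays decided these counts. Dropping C3H14-OE replicate 1 gave 0 higher and 2 lower, and C3H14-OE replicate 2 gave 1 and 1. Dropping C3H15-OE replicate 3 gave 83 higher and 100 lower, whereas dropping C3H15-OE replicate 1 gave 0 and 3, and C3H15-OE replicate 2 gave 0 and 0. Through the shared spread, dropping WT replicate 1, 2 or 3 gave 3, 6 or 6 higher and 2, 6 or 3 lower, dropping c3h14c3h15 replicate 1 gave 24 and 20, and dropping c3h14c3h15 replicate 3 gave 5 and 2.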

How the data were processed

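RNA of basal stems was read on 12 Affymetrix arrays, 3 per group, from 200 ng of RNA per array. The authors deposited intensity values normalized with RMA, per the submitters' processing notes, on a linear scale, and log2 was taken of each. The RMA version is not given in the sources used here. Of 22810 probe sets 64 controls were left out and 22746 tested with no filter on dim signal. The number of arrays limits the precision. Log2 medians lay between 5.65 and 5.84, and no 2 arrays were identical.

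Genes were named from the platform's annotation, updated through the RefSeq table of TAIR10.1. Of the probe sets 13513 had 1 gene (13436 matched), 503 several and 8730 are unnamed here. Coordinates and sequences were not used.

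One linear model, a mean per group over 12 arrays with 8 residual degrees of freedom, was fitted with limma 3.58.1 in R 4.3.3. Adjustment was by Benjamini-Hochberg across all probe sets, with a threshold of 0.05. The fit was checked on simulated data. Without C3H14-OE replicate 3 the fit had 7 residual degrees of freedom. Alternatives covered normalization (quantile again, or cyclic loess), a filter on the dimmest 40%, a fit of the compared arrays alone, array weights, a block for replicate number, robust eBayes with a trend, a 2-fold threshold, all probe sets of a list, and each array left out.

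Named genes were C3H14, all probe sets past the threshold, the 12 each way of smallest p with arrays that do not overlap, up to 4 members of smallest p per list, the 8 each way farthest apart on replicate 3, and up to 6 each way against C3H15-OE. A list uses the brightest probe set per gene. Members and lists were chosen with earlier results of these data known. After the values were seen, 12 symbol genes each way, the plastid and glucosinolate lists, and the count of probe sets apart per array were added, and genes of other roles that shared a symbol pattern were taken out of 5 lists.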

Additional observations from a re-analysis of the deposited data

Results flagged for a closer look

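Genes that differed between C3H14-OE and C3H15-OE in the direct contrast past the threshold, named by the rule of up to 6 each way, are given here as log2 differences, C3H14-OE minus C3H15-OE. Higher in C3H14-OE were AT1G50040 (1.74), AT5G05890 (1.30), TRM28 (1.29), of a family linked to microtubule arrays, AT2G20670 (1.08), AT1G31040 (1.03) and AT5G34800 (0.83). Lower in C3H14-OE were MSRB9 (-2.52), AT4G00700 (-1.97), AT1G53980 (-1.26), AT2G39710 (-1.12), AT5G62350 (-1.08) and GLR2.8 (-0.84), a glutamate receptor-like channel. By limma the smallest adjusted p was 0.0098 (MSRB9) and the highest 0.0491 (AT5G34800, AT1G31040 and AT2G20670), with 3 arrays a group and no overlap between the groups. All 12 also passed without C3H14-OE replicate 3. Against WT none of the 12 passed in C3H14-OE, while in C3H15-OE all but AT5G34800 did. In C3H15-OE, MSRB9 stood at 2.67 (limma adjusted p = 0.000877), TRM28 at -1.49 (limma adjusted p = 0.00347) and GLR2.8 at 0.96 (limma adjusted p = 0.00397) against WT. In C3H14-OE the same genes stood at 0.15, -0.21 and 0.12 against WT. AT1G50040 lay below WT in both groups.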

How the results depend on the processing

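Against WT, where 4 probe sets were higher and 6 lower, the counts were 16 and 23 when only the 6 arrays of C3H14-OE and WT were fitted, 18 and 29 with array weights, and 42 and 32 on the 5 arrays left without C3H14-OE replicate 3 and the other groups (in place of 1 and 1 on 11 arrays). After cyclic loess 2 were higher. Numbers of replicates did not pair the arrays of C3H14-OE and WT, of which 0 of 3 same-numbered pairs deviated together with a correlation over 0.1. Over all groups 4 of 18 such pairs did, WT and C3H15-OE replicate 3 among them (0.22). With the replicate block the counts were 1 and 3, and against C3H15-OE 7 and 8 in place of 14 and 14. After cyclic loess 24 were higher than in C3H15-OE. Leaving out each array in turn gave 0 to 19 higher and 1 to 37 lower than WT, and 0 to 83 higher and 0 to 100 lower than C3H15-OE. The C3H14 difference then ran from 0.90 to 1.91 and passed in none of these fits. Of 1024 differences of 52 named probe sets under the alternatives 57 lost and 37 gained a call. These probe sets were chosen for groups that do not overlap, which fixes their direction when an array is left out. SAG29 (1.41 and -0.39), AT5G52390 (1.62 and -0.26) and PUB22 (0.12 and -0.23), outside them, turned when C3H14-OE replicate 3 was left out. AT4G24350, whose call was lost most often, passed under 9 of 20 alternatives. The cause of these moves was not tested, and the fits that leave arrays out also hold fewer arrays. A median shift of all probe sets of at most 0.06 either way was seen under any setting. Precision was limited by 3 arrays a group.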
